A study of Mus musculus with 9 samples.

Results

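Calcium transport into milk was followed through 9 genes: the plasma membrane calcium pumps Atp2b1, Atp2b2 and Atp2b4, the Golgi pumps Atp2c1 and Atp2c2, the endoplasmic reticulum pump Atp2a2, the store sensor Stim1, the calcium-sensing receptor Casr and the hormone gene Pthlh. The genes were listed by name, and every probe that the array design assigns to 1 of them was taken. By gene name, 7 genes were found. Atp2c2 was found under its older name 1810010G06Rik, which a RefSeq gene table gives as a synonym. Atp2b4 was matched to no probe and was not analysed here. The 8 measured genes, of 27962 gene names on the array, had 19 of its 41174 probes.

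RNA came from mammary gland number 4 on lactation day 2 (L2), with 1 dam for each 1-color Agilent array. The control group was 4 wild-type (WT) dams, and the other was 5 dams that express human NAG-1 (hNAG-1), the growth factor also named GDF15. The labels give the strain background of all dams as C57BL/7, while the study's text speaks of C57BL/6 mice. By the study's methods the transgene is expressed in all tissues and 2 founder lines were kept. The labels name no line and no litter for the 9 dams, and p-values measure the spread between dams.

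A lactating mammary cell takes up calcium from the blood, holds cytosolic calcium low with ATP-driven pumps, and delivers calcium to milk. The pump PMCA2, the product of Atp2b2, sits in the apical membrane and is known as the main route of calcium into mouse milk, while the Golgi pumps load the secretory vesicles in which casein binds calcium. The calcium-sensing receptor reads calcium on the blood side of the cell and lowers secretion of parathyroid hormone-related protein (PTHrP), the product of Pthlh, a hormone that releases calcium from maternal bone.

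The oligos that carry the results differ in how far the probes of a gene stand apart. The stretches of 30 bases that follow come from the 60-base probes, 5′ to 3′, as the array files print them, and each position is that of the whole probe on mouse build mm7. The Pthlh oligos are shown because 28 bases, in capitals, are the same in both. The Atp2c1 pair is shown because its values went opposite ways, and the Pth1r pair because it gave the lowest p among the brightest probes of a wider calcium list. The others are the single probes of Atp2b2, Atp2c2 and Casr.
Atp2b2 (A_51_P256384, chr6:113909283-113909342, minus strand): gggaaccagacctttctctggcagccatgc
Atp2c2 (A_51_P189121, chr8:118390623-118390682, plus strand): catgtcccgcacaggacagggtggagctta
Atp2c1 (A_51_P204630, chr9:105186802-105186861, minus strand): ccaggatagcacctgaaggacttaggtgat
Atp2c1 (A_52_P397722, chr9:105152622-105152681, minus strand): ttatgaagggtgcttatgagcaggtgatta
Casr (A_52_P416166, chr16:36202922-36202981, minus strand): gccaatggtgggggaccaccagccagaaat
Pthlh (A_51_P129360, chr6:147330723-147330782, minus strand): TGGGATCAAACTGTCTCCCCAGGAAACTgc
Pthlh (A_51_P129363, chr6:147330755-147330814, minus strand): atTGGGATCAAACTGTCTCCCCAGGAAACT
Pth1r (A_51_P327869, chr9:110420304-110421320, minus strand): gttgccatcatatactgtttctgcaatgtg
Pth1r (A_51_P327874, chr9:110420044-110420103, minus strand): cattgagaacgaaaccataccagttactat

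Over the 60 bases, probes of different genes shared runs of at most 12 bases, and probes of one gene other than Pthlh at most 7. No gene annotation of build mm7 was used here, so exon and UTR positions are not given.

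Values are scaled intensity, a probe's brightness once all arrays were brought to a common 75th percentile, and compare dams on 1 probe but not 1 probe with another. Fold changes are differences of mean log2 scaled intensity, hNAG-1 minus WT, with the standard error (SE) of limma, and adjusted p-values are by Benjamini-Hochberg over all 41174 probes. There were 3 slides. WT 1 was alone on slide 1, the dams hNAG-1 1 to 4 shared slide 2, and hNAG-1 5 shared slide 3 with WT 2 to 4. A fit with slide as a block therefore compares hNAG-1 5 with WT 2 to 4, and its value is given with the results. Its hNAG-1 arm is 1 dam, which is assumed to vary like WT 2 to 4 and the dams of slide 2, from which its spread comes. In that fit the median over all probes was 0.19 on the log2 scale, against -0.02 without the block. Over the 26765 probes well above background on all arrays of a genotype, the block median was 0.11. A block value is therefore read against these medians. Luminal markers (Krt8, Krt18, Krt19, Epcam, Elf5, Cdh1, Cldn3 and Cldn7) were well above background on all 9 arrays. Their summed intensity ran from 231685 to 431358 in WT and from 306612 to 412053 in hNAG-1, with WT 2 lowest. WT 2 also had the highest lymphocyte marker sum (Cd79a, Cd79b, Ms4a1, Cd3e and Cd3d), 28420, where the other 8 dams had 588 to 4696. In whole gland, fewer cells of a type and less RNA per cell cannot be told apart.

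None of the 19 probes differed between the genotypes at an unadjusted p under 0.05 by limma, where 5.61% of all probes did. After adjustment the count was also 0, the lowest adjusted p was 0.661, and the background was 0.00243%. Of the 19 probes, 9 were higher and 10 lower in hNAG-1, with a median of -0.02, equal to that of all probes, and a range from -0.51 to 0.50. With slide as a block, 6 were higher and 13 lower, where 28322 of all 41174 probes were higher. The median of the 19 was -0.19, against 0.19 over all probes. The largest differences of the 19 in that fit were 1.59 for the Casr probe and 1.97 for Atp2a2 probe A_52_P1156808. The latter was well above background on 1 array. The genotypes did not overlap in 1 of 19 probes, an Atp2a2 probe, against 1.35% of all probes. Well above background on all 9 arrays were 15 of the 19, and 1 was on none.

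**Figure D1:**
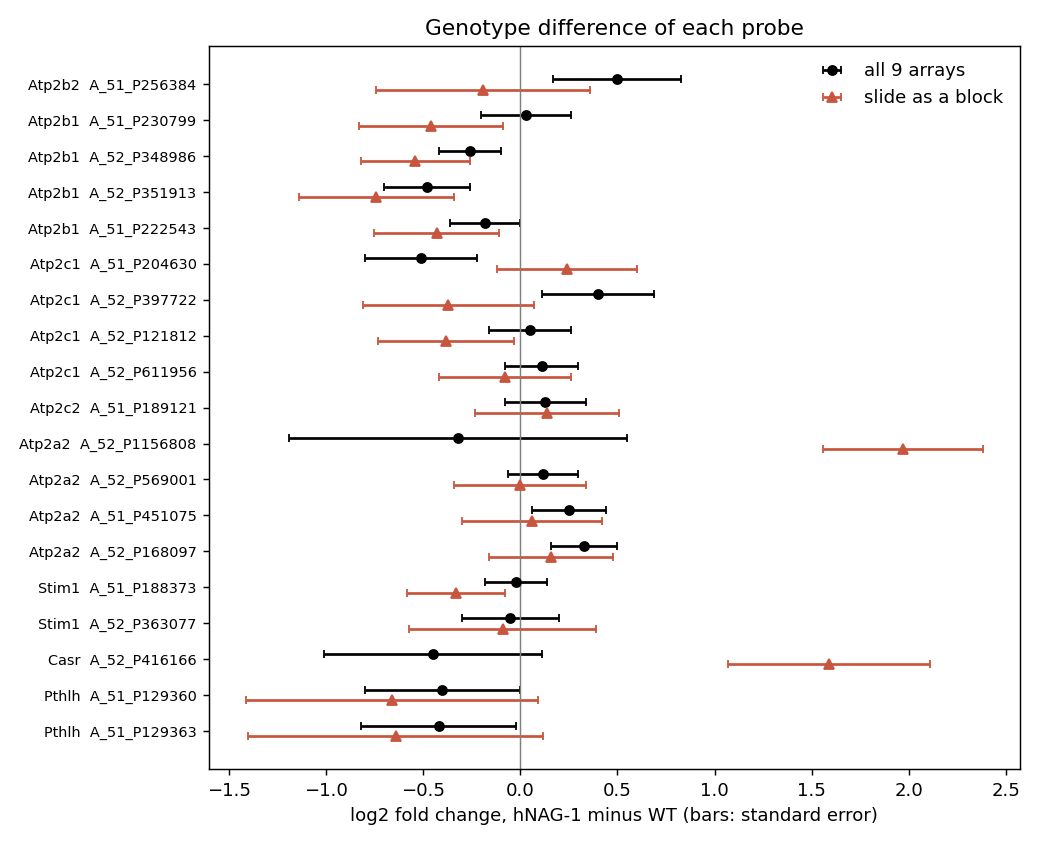
Log2 fold change, hNAG-1 minus WT (x axis), of each of the 19 probes (y axis), with the standard error as bars, where black circles are the fit on all 9 arrays and red triangles the fit with slide as a block. The circles lie between -0.51 and 0.50, and the triangles of Casr (1.59) and of Atp2a2 probe A_52_P1156808 (1.97) lie far to the right of their circles, the latter from a probe well above background on 1 array.

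Atp2b2 encodes PMCA2, the apical pump. Its probe read 15650, 9585, 25197 and 19164 in WT 1 to 4, and 28573, 23113, 19931, 35574 and 14570 in hNAG-1 1 to 5. The 2 highest dams were hNAG-1 and the lowest was WT 2, but hNAG-1 5 was below 3 of 4 WT dams and the genotypes overlapped. WT dams averaged 17399 ± 6533 (SD, n = 4), and hNAG-1 dams 24352 ± 8070 (SD, n = 5). On the log2 scale the difference was 0.50 (SE 0.33), with a 95% interval from -0.24 to 1.25 (limma, adjusted p = 0.661, exact permutation test, two-sided p = 0.198). It was -0.19 with slide as a block. Without WT 2 it was the lowest of the values with 1 dam left out, and those ran from 0.25 to 0.71.

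The Golgi pumps move calcium, and manganese, into the lumen where casein micelles form. The Atp2c2 probe (SPCA2) read 55629, 34103, 43723 and 48928 in WT, and 46093, 63641, 57082, 36819 and 46132 in hNAG-1. Both genotypes spanned nearly the same range, and WT 2 was again lowest. The means were 45596 ± 9080 (SD, n = 4) and 49954 ± 10490 (SD, n = 5). The log2 difference was 0.13 (SE 0.21), with an interval from -0.34 to 0.60, and 0.14 with slide as a block (limma, adjusted p = 0.842, exact permutation test, two-sided p = 0.516).

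Atp2c1 encodes SPCA1, the Golgi pump found in most cell types, and its 4 probes did not move together. On the brightest, A_51_P204630, the WT dams read 2846, 1256, 1425 and 1910 and the hNAG-1 dams 1278, 931, 959, 1425 and 1778. WT 1, alone on slide 1, stood highest, and hNAG-1 2 and 3 stood lowest. The difference was -0.51 (SE 0.29, 95% interval from -1.16 to 0.13), from means of 1859 ± 714 (SD, n = 4) and 1274 ± 351 (SD, n = 5) (limma, adjusted p = 0.661, exact permutation test, two-sided p = 0.127).

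The dimmer probe A_52_P397722 read 88.2, 109, 144 and 96.8 in WT, and 117, 238, 132, 176 and 88.7 in hNAG-1, so that WT 1 was lowest and hNAG-1 2 highest. Its difference was 0.40 (SE 0.29), opposite in sign to that of the brightest probe. Over the 9 arrays the log2 values of the 2 probes had a Pearson r of -0.71, a description of arrays that share slides. The other 2 probes, A_52_P121812 and A_52_P611956, differed by 0.05 (SE 0.21) and 0.11 (SE 0.19) and had an r of 0.66 with each other. The mean over all 4 probes differed by 0.01. Under the slide block the brightest probe was at 0.24 (SE 0.36). The median in that fit was 0.19 over all probes and 0.11 over those well above background in a genotype. The others were at -0.37, -0.38 and -0.08, below both medians.

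**Figure D2:**
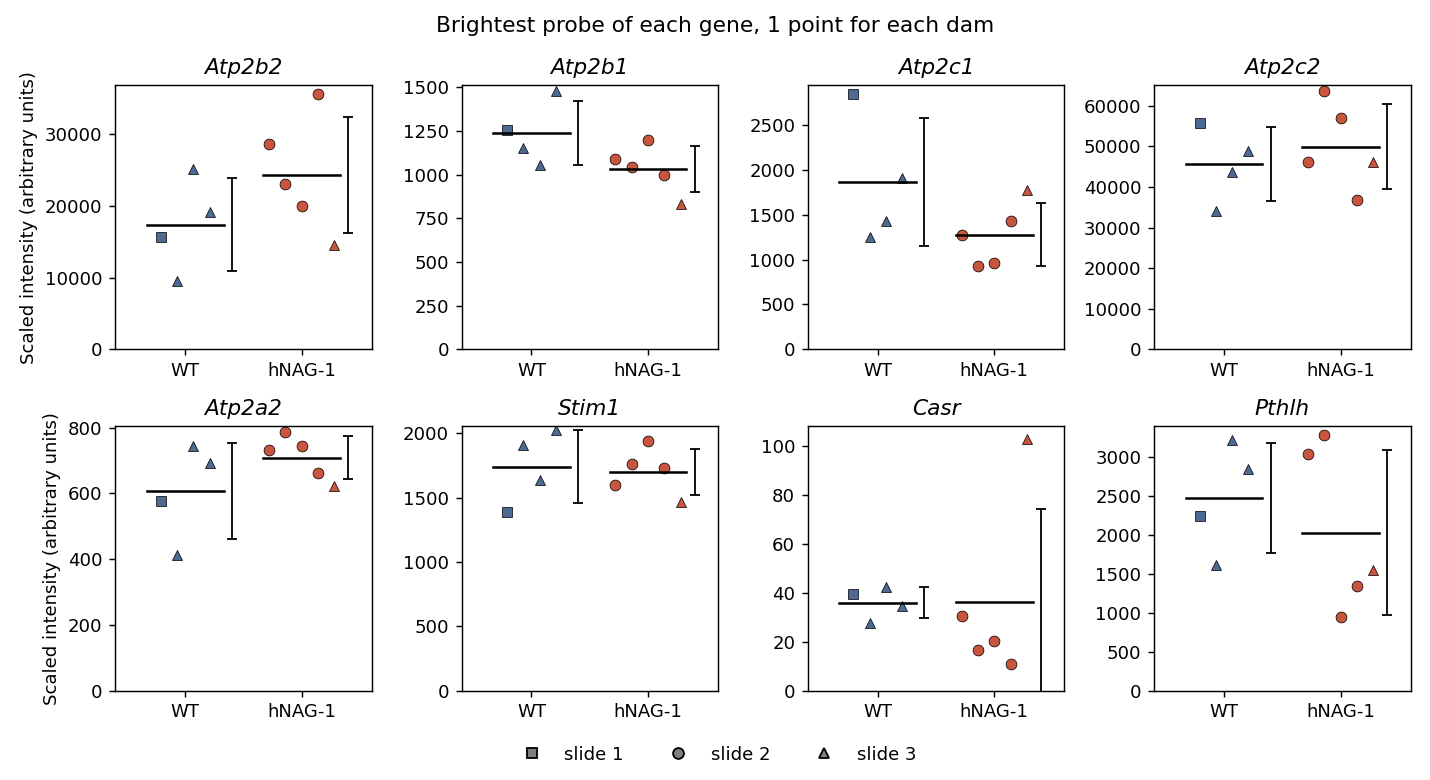
Scaled intensity in arbitrary units (y axis, from 0) of the brightest probe of each of the 8 genes in WT and hNAG-1 dams (x axis), 1 point for each dam, with the slide as the marker shape, the mean as a line and the SD as a bar. The genotypes overlap in every panel, WT 2 is the lowest dam for Atp2b2, Atp2c2 and Atp2a2, and hNAG-1 5 stands alone for Casr, where the SD of 38.1 is larger than the mean of 36.4.

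Atp2b1 encodes PMCA1, the plasma membrane pump present in nearly all cells. Its brightest probe, A_52_P348986, read 1257, 1153, 1054 and 1480 in WT, and 1086, 1044, 1199, 996 and 834 in hNAG-1. Of the hNAG-1 dams, 3 of 5 lay below every WT dam, with hNAG-1 5 lowest. The means were 1236 ± 183 (SD, n = 4) and 1032 ± 134 (SD, n = 5), and the log2 difference was -0.26 (SE 0.16, 95% interval from -0.62 to 0.11, limma adjusted p = 0.661, exact permutation test, two-sided p = 0.0952).

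Probe A_52_P351913, upstream of the others on the same strand, read 46.6, 61.3, 45.9 and 61.7 in WT and 45.2, 26.5, 51.2, 40.6 and 33.3 in hNAG-1. Here 4 of 5 hNAG-1 dams lay below every WT dam, and hNAG-1 2 was not well above background. The difference, -0.48 (SE 0.22, 95% interval from -0.97 to 0.02), had the lowest unadjusted limma p of the 19 probes, 0.0574 (exact permutation test, two-sided p = 0.0794). It was -0.10 with normexp background correction and -0.20 with quantile normalization. The remaining probes differed by -0.18 (SE 0.18) for A_51_P222543 and by 0.03 (SE 0.23) for A_51_P230799. Within slide 3, hNAG-1 5 was below the WT mean on all 4 probes of Atp2b1, with differences of -0.54 for the brightest and -0.74, -0.43 and -0.46 for A_52_P351913, A_51_P222543 and A_51_P230799.

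Atp2a2 encodes SERCA2, which refills the endoplasmic reticulum with calcium. Probe A_52_P168097 read 167, 154, 162 and 180 in WT, and 185, 296, 193, 198 and 185 in hNAG-1. Every hNAG-1 dam was above every WT dam, with hNAG-1 2 apart from the other 4. The means were 166 ± 10.9 (SD, n = 4) and 211 ± 47.8 (SD, n = 5), a log2 difference of 0.33 (SE 0.17, 95% interval from -0.06 to 0.72, limma adjusted p = 0.661, exact permutation test, two-sided p = 0.0238). Without hNAG-1 2 the difference was 0.20.

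The brightest Atp2a2 probe, A_51_P451075, read 577, 413, 744 and 694 in WT, and 732, 786, 744, 662 and 622 in hNAG-1, with WT 2 lowest and the other dams overlapping. It differed by 0.25 (SE 0.19), and A_52_P569001 by 0.12 (SE 0.18). With slide as a block the 3 probes differed by 0.16 for A_52_P168097, 0.06 for A_51_P451075 and -0.0024 for A_52_P569001. The last probe, A_52_P1156808, read 80.5 in WT 1, 18.6 in hNAG-1 5 and between 3.65 and 8.63 in the other 7 dams. It was well above background in WT 1 alone, so its fitted differences, drawn in the plot of fold changes, are not read as fold changes.

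Stim1 encodes the sensor that opens calcium entry channels when the store is empty. Probe A_51_P188373 read 1389, 1907, 1639 and 2023 in WT, and 1598, 1761, 1941, 1731 and 1468 in hNAG-1, with the genotypes interleaved. The difference was -0.02 (SE 0.16), with an interval from -0.39 to 0.34, the narrowest of the 19 probes together with that of Atp2b1 A_52_P348986. It was -0.33 with slide as a block and 0.19 when arrays were scaled to their medians, where the median of all probes was 0.20. The second Stim1 probe was not well above background on any array.

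**Figure D3:**
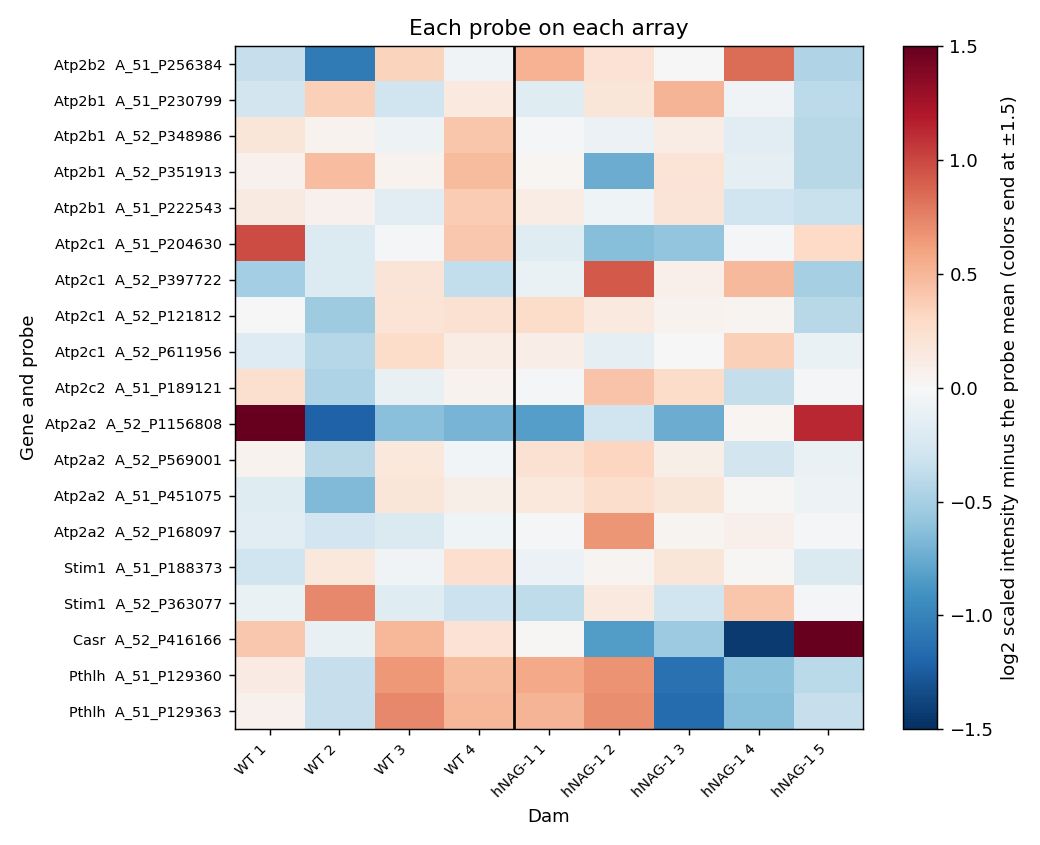
Log2 scaled intensity of each of the 19 probes (rows) in each dam (columns), minus the mean of the probe over the 9 arrays, where red is above the mean and blue below, with colors ending at ±1.5, and the black line parts WT from hNAG-1. Red and blue do not split at the black line. WT 2 is blue for Atp2b2, Atp2c2 and Atp2a2, and the Pthlh probes are blue in hNAG-1 3 to 5 and WT 2.

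Casr encodes the receptor that senses extracellular calcium. Its probe read 39.6, 27.6, 42.4 and 34.7 in WT, and 30.4, 16.8, 20.5, 11.1 and 103 in hNAG-1. On slide 2, 3 of 4 hNAG-1 dams lay below every WT dam, while hNAG-1 5, on slide 3, lay above all others. It passed the background limit in 4 of 4 WT dams and 2 of 5 hNAG-1 dams. The difference was -0.45 (SE 0.56), with a 95% interval from -1.71 to 0.81 (limma, adjusted p = 0.791, exact permutation test, two-sided p = 0.524). Within slide 3 it was 1.59 (SE 0.52), and without hNAG-1 5 it was -0.95 (SE 0.30), with limma adjusted p-values of 0.394 and 0.180. In the latter, 3 of the 4 hNAG-1 dams left were not well above background, so its size rests on values at background. The size of the -0.45 over all dams rests on them in part. With normexp background correction and quantile normalization the difference over all dams turned to 0.06 and 0.12.

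Pthlh encodes PTHrP, the hormone that the receptor holds down. Probe A_51_P129360 read 2243, 1611, 3221 and 2844 in WT, and 3041, 3284, 944, 1342 and 1551 in hNAG-1. The hNAG-1 dams formed a pair near the top of the WT range and 3 dams, hNAG-1 3 to 5, below every WT dam. The difference was -0.40 (SE 0.40), with a 95% interval from -1.30 to 0.49, from means of 2480 ± 705 (SD, n = 4) and 2033 ± 1058 (SD, n = 5) (limma, adjusted p = 0.73, exact permutation test, two-sided p = 0.381). The second probe, which shares 28 bases with the first, gave -0.42 (SE 0.40) and is no independent measure. Within slide 3 the values were -0.66 and -0.64.

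Pth1r, the receptor that PTHrP binds, is not among the 9 genes but was the only gene of the wider calcium list whose brightest probe had an unadjusted p under 0.05. That probe, A_51_P327874, read 273, 366, 692 and 1156 in WT, and 983, 1376, 1488, 729 and 1533 in hNAG-1. Of the hNAG-1 dams, 3 of 5 were above every WT dam, among them hNAG-1 5 on slide 3, and WT 4 was inside the hNAG-1 range. The log2 difference was 1.15 (SE 0.42), from means of 622 ± 399 (SD, n = 4) and 1222 ± 351 (SD, n = 5) (limma p = 0.0239, adjusted p = 0.661, exact permutation test, two-sided p = 0.0476).

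The second Pth1r probe read 69.2, 129, 205 and 363 in WT, and 277, 509, 538, 266 and 505 in hNAG-1, in nearly the same order of dams. It differed by 1.32 (SE 0.46, limma p = 0.0183, adjusted p = 0.661, exact permutation test, two-sided p = 0.0476). Its r with the first probe was 0.99. With the slide block the differences were 1.21 and 1.25, with unadjusted p-values of 0.0969 and 0.0861 by limma. Without WT 1, WT 2 or hNAG-1 3 the brightest probe had differences of 0.82, 0.97 and 1.06, with unadjusted limma p-values of 0.0727, 0.071 and 0.0507.

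Markers of other cell types are given beside Pth1r. All 7 adipocyte markers (Adipoq, Lep, Fabp4, Plin1, Cfd, Retn and Cidec) were well above background on all 9 arrays. Each had a positive difference, from 0.03 (SE 0.16) for Fabp4 to 1.00 (SE 0.48) for Retn, and 0 of 7 had an unadjusted p under 0.05 by limma, where 5.61% of all probes did. Within slide 3, 5 of the 7 were positive, with a median of 0.14. Of all 41174 probes 28322 were positive there, with a median of 0.19, and the slide 3 counts below are read against that share. Their summed intensity ran from 418590 to 785282 in WT, lowest in WT 1 and highest in WT 4, and from 575905 to 717950 in hNAG-1. The differences were also positive for 5 of 5 myoepithelial markers (Krt5, Krt14, Acta2, Myh11 and Oxtr), 1 of them at an unadjusted p under 0.05. For luminal markers 8 of 8 were positive. Within slide 3 these counts were 5 and 8, with medians of 0.21 and 0.22, against 0.19 over all probes. Over all 9 arrays the differences were positive for 3 of 3 endothelial markers (Pecam1, Cdh5 and Kdr), and within slide 3 for 0. For fibroblast markers (Col1a1, Col3a1 and Pdgfra) they were positive for 3 of 3, and within slide 3 for 2. They were positive for 0 of 5 lymphocyte and 0 of 4 skeletal muscle markers, with medians of -1.36 and -1.54, and for 1 of 3 macrophage markers (Adgre1, Cd68 and Csf1r). Within slide 3 the lymphocyte, muscle and macrophage counts were 0. The part of any of these cells in the Pth1r values was not tested.

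**Figure D4:**
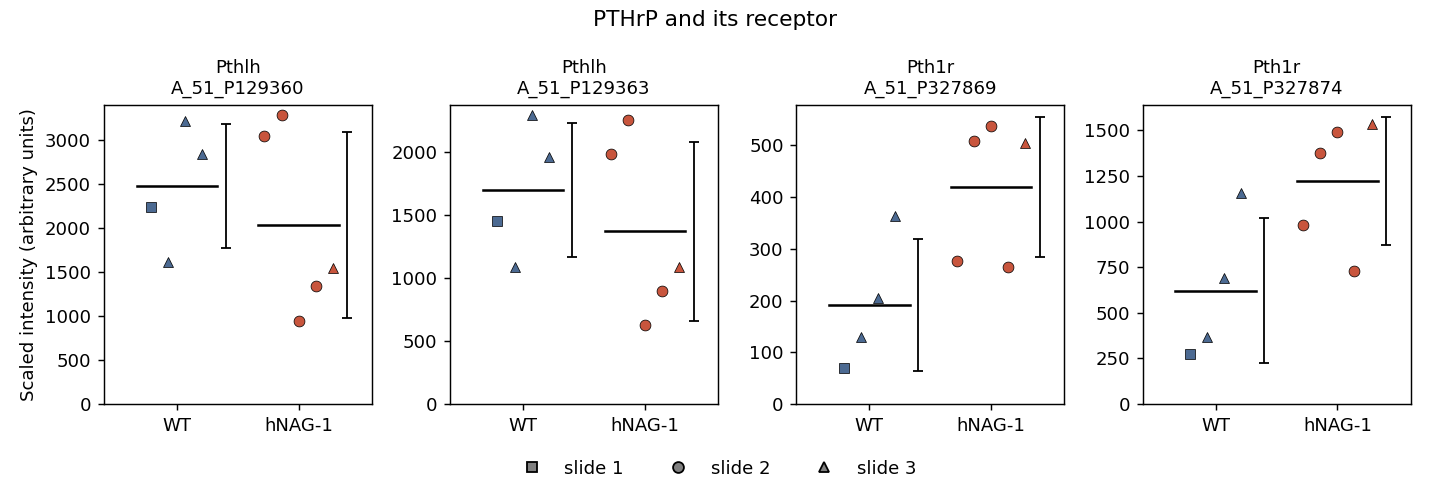
Scaled intensity in arbitrary units (y axis, from 0) of both Pthlh probes and both Pth1r probes in WT and hNAG-1 dams (x axis), 1 point for each dam, with the slide as the marker shape, the mean as a line and the SD as a bar. The Pthlh panels repeat each other, with hNAG-1 dams in a high pair and a low group of 3, and in the Pth1r panels the 3 highest dams are hNAG-1.

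The wider list, shortened after its values were seen, held 46 other genes of calcium handling, each by its brightest probe. In this text the brightest probe of a gene is that with the highest mean log2 intensity over the 9 arrays. Of the 46 probes, 36 were well above background on all 9 arrays. Of the 46, 26 were higher and 20 lower in hNAG-1, with a median of 0.03 against -0.02 over all probes. At an unadjusted p under 0.05, 1 gene was higher (Pth1r) and 0 were lower by limma, where 1.15% and 4.46% of all probes were, and 0 passed after adjustment. The genotypes did not overlap for 1 of 46 genes, against 1.35% of all probes. This was Sdf4, which encodes a calcium-binding protein of the Golgi lumen, at 0.25 (SE 0.12), and 0.15 with slide as a block, named after its values were seen.

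The casein genes, whose products carry calcium in milk, differed by 0.04 (SE 0.22) for Csn1s1, 0.10 (SE 0.23) for Csn1s2a, 0.13 (SE 0.27) for Csn1s2b, 0.06 (SE 0.22) for Csn2 and -0.002 (SE 0.19) for Csn3. Each casein difference was smaller than its standard error. With slide as a block they were -0.10, 0.01, 0.13, -0.01 and 0.06 in the same order. The summed casein intensity ran from 1209802 to 2180561 in WT and from 1378143 to 2275756 in hNAG-1, with WT 2 lowest, as for the Atp2b2 and Atp2c2 probes. Fam20c, the kinase that phosphorylates casein in the Golgi, differed by 0.24 (SE 0.19), by 0.26 within slide 3 and by 0.10 without WT 2.

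Among calcium entry genes, the channel gene Orai1 differed by 0.37 (SE 0.24), by -0.16 with slide as a block and by 0.21 without WT 2. Orai2, the other channel named here, read 283 in WT 2 and 41.6 to 48.1 in the other WT dams, and 22 to 44.7 in hNAG-1. Its difference was -1.04 (SE 0.55), -1.13 with slide as a block, and -0.37 without WT 2, the dam with the highest lymphocyte markers. The part of those cells in the Orai2 value was not tested.

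Of the store release channels, Itpr1 had the largest difference, -0.23 (SE 0.16). The sodium-calcium exchanger Slc8a1 differed by -0.26 (SE 0.19), and the mitochondrial exchanger Slc8b1 by 0.04 (SE 0.21). Within slide 3 these were 0.01, -0.04 and 0.31. Within the calcium-binding proteins 8 of 10 genes were higher, where 19715 of 41174 probes were, and 0 had an unadjusted p under 0.05 by limma, against 5.61% of all probes. With slide as a block 2 of 10 did, against 7.61%. Those were Calm3 and Calb1, at 0.67 and 1.04 in that fit, whose hNAG-1 arm is 1 dam. Both are named after their values were seen. The Calb1 probe was not well above background on any array, so its value is not read as a fold change. Without the block, differences of the 10 genes reached from -0.07 (SE 0.21) for Calm2, a calmodulin gene, to 0.33 (SE 0.17) for Calu. Calu encodes a calcium-binding protein of the secretory pathway. Within slide 3 the Calm2 and Calu values were 0.54 and 0.12.

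**Figure D5:**
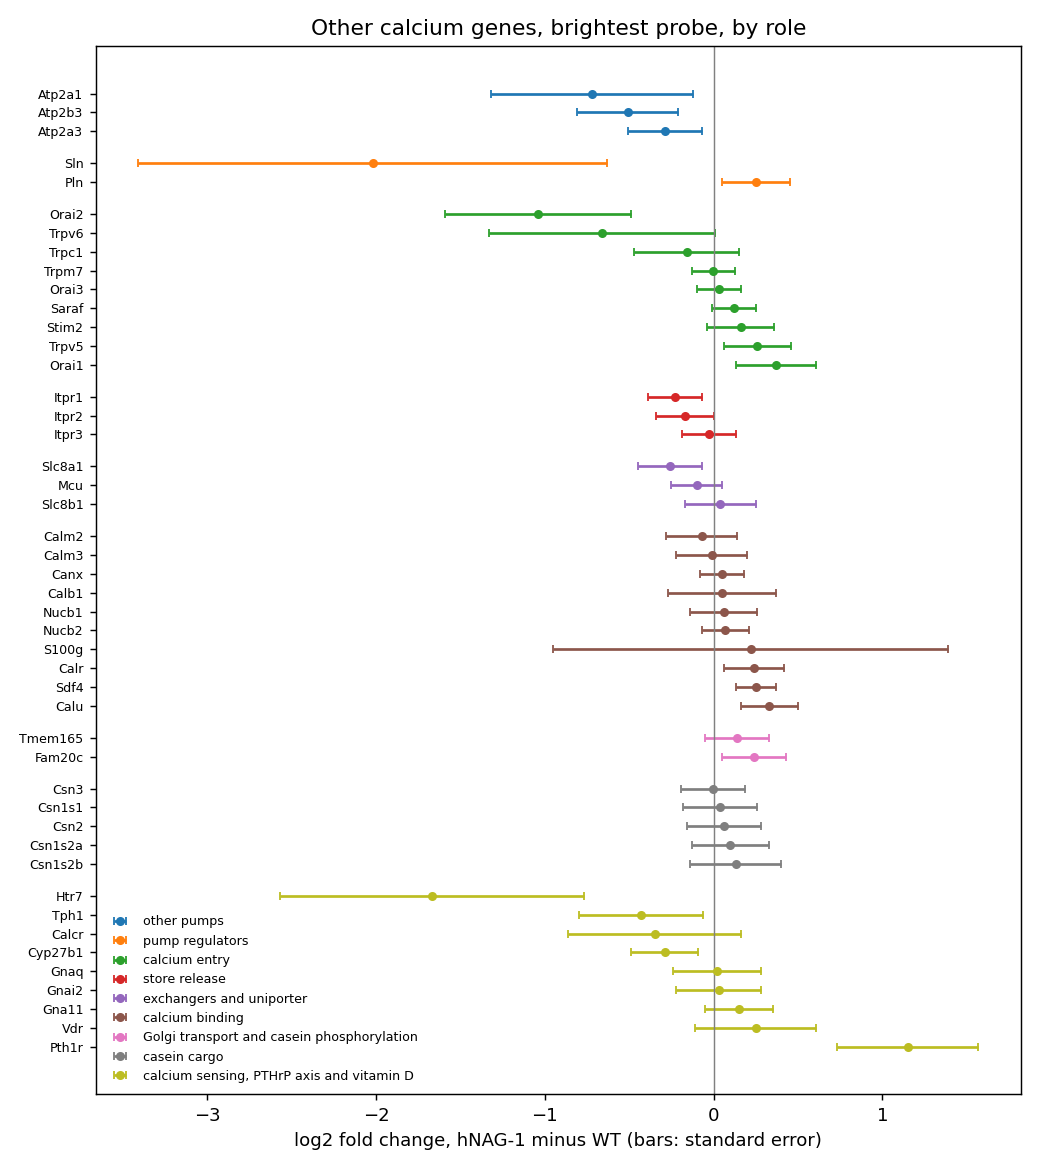
Log2 fold change, hNAG-1 minus WT (x axis), of the brightest probe of the 46 other calcium genes (y axis), grouped and colored by role, with the standard error as bars. Most points lie near 0. Pth1r lies at 1.15 and Orai2 at -1.04, and the points of Sln and Htr7, at -2.02 and -1.67, rest in part on arrays where the probes were not well above background.

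The pump of fast muscle, Atp2a1, differed by -0.72 (SE 0.60), by -0.67 within slide 3 and by -0.14 without WT 4. It read 677 in WT 4 and 72.4 to 249 elsewhere. The other Atp2a1 probe, with a lower mean log2 intensity, differed by -2.76 (SE 1.83), and by -0.87 within slide 3. It was well above background in 3 of 4 WT and 2 of 5 hNAG-1 dams, so its size rests in part on values at background. Sln, a small inhibitor of muscle pumps, read 6.36, 87.3, 162 and 218 in WT and 5.53, 5.84, 17.6, 7.01 and 298 in hNAG-1. Its difference was -2.02 (SE 1.39), and 1.04 with slide as a block, and it was well above background in WT 2 to 4 and hNAG-1 5 alone. The size of the first value therefore rests on values at background, and after normexp background correction it was -0.62. Skeletal muscle markers (Acta1, Ckm, Mylpf and Tnnt3) summed to between 3200 and 41461 in WT, highest in WT 4, and to between 2485 and 12575 in hNAG-1. Their part in the Atp2a1 and Sln values was not tested.

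Pln, another inhibitor of SERCA pumps, was not well above background on any array. Htr7, a serotonin receptor gene, read 76.6, 101, 103 and 98.9 in WT and 73.8, 6.68, 32.1, 8.17 and 175 in hNAG-1. The dam hNAG-1 5 was highest, and all 4 hNAG-1 dams of slide 2 lay below every WT dam. The probe was not well above background in 2 of 5 hNAG-1 dams, so the size of its fitted difference, -1.67 (SE 0.90), rests in part on values at background. After normexp background correction it was -0.44. Without that correction it was 0.80 within slide 3, where all 4 dams were well above background.

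Over the 9 arrays, the probes of other named genes most like that of Atp2b2 among 23088 compared were Plcb1 (r = 0.978), Hsd17b7 (0.976), Eif1a (0.974), Dnajb9 (0.970) and Atf4 (0.963). For Atp2c2 they were Mfsd4a (0.986), Araf (0.964), Ano10 (0.960), Grb10 (0.959) and Slc18b1 (0.958), of which 3 are listed on the array under older names. These Pearson coefficients on log2 values are descriptions, and the arrays share slides and scaling. Among the brightest probes of the 8 genes, r ranged from -0.55 for Atp2c1 with Stim1 to 0.78 for Atp2a2 with Atp2b2, and it was 0.12 for Atp2b2 with Atp2c2.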

How the data were processed

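For 9 whole mouse genome arrays of 1 color, the authors deposited what the Agilent scanner software gave, an intensity for each feature. It was written by Agilent Feature Extraction 9.5, which subtracts background, and carries no scaling between arrays. The methods name an ANOVA, and no normalization was found in them. The steps from here on are not the authors'. After removal of control features, arrays were scaled to a common 75th percentile (532.586 to 1185.3 before scaling), log2 was taken, and features of 1 probe were averaged. Genotypes were compared over 41174 probes with limma 3.58.1 (lmFit and eBayes, R 4.3.3), two-sided, without covariates, with Benjamini-Hochberg adjustment over all probes. The exact permutation tests used all 126 splits, and the smallest p they can give is 0.00794. The number of arrays limits the precision. Between 59.8% and 76.1% of features were well above background, and 69.0% or more in each WT dam. In hNAG-1 1 to 5 the share was 69.7%, 60.3%, 64.6%, 59.8% and 73.3%, lowest on arrays of slide 2. Its part in the values of dim probes, such as those of Casr and Htr7, was not tested.

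Groups came from the labels. The 9 genes and the lists were chosen with earlier results of these data known. All probes of the 9 genes are named. From the wider list, named genes are those with an unadjusted p under 0.05, the largest rise and fall of each role, the caseins, and those said to be named after their values were seen. For Atp2b2 and Atp2c2 the 5 most similar probes are named. Of the 46 list genes, 33 were matched by gene name, 12 by an older name and 1 by accession in a RefSeq table (GRCm38.p6, names only). The lists were shortened after their values were seen, by genes not reported here. On simulated data with 41174 probes, 55% of 200 probes changed 1.5-fold had an unadjusted p under 0.05, and 0% passed adjustment. For 2-fold changes these were 85% and 0%, and for 4-fold changes 96% and 76%. The simulated noise was independent between arrays and held no slide effect, so these shares do not cover slides that differ. The alternatives tried were normexp with an offset of 50, quantile and median scaling, a filter on dim probes, outlier features left out, slide as a fixed or random block, a replicate block, the methods' ANOVA, the mean over the probes of a gene, and each dam left out.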

Additional observations from a re-analysis of the deposited data

Results flagged for a closer look

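In 4 of 76 groups of dams 1 dam stood far from the others, by its gap to the nearest dam as a share of the range of its group, both on the log2 scale. The intensities below are linear. Chance flags about 1 in 20 groups. WT 1 stood apart for Atp2a2 probe A_52_P1156808 (share 0.867), at 80.5 against 3.65 to 5.51. hNAG-1 2 stood apart for Atp2a2 probe A_52_P168097 (share 0.855), at 296 against 185 to 198, on the probe whose genotypes did not overlap. WT 2 stood apart for Orai2 (share 0.924), at 283 against 41.6 to 48.1. WT 1 stood apart for Htr7 (share 0.875), at 76.6 against 98.9 to 103.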

How the results depend on the processing

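Adjusted limma calls over all probes numbered 1, 138 with slide as a block and 215 without hNAG-1 5, and the genotypes share only slide 3. The count of the 19 probes with an unadjusted p under 0.05 was 0, that of the 46 list genes was 1, and 5.61% of all probes passed. The counts became 1 and 2 with the dim filter (7.19% of all probes), normexp (2.57%) or quantile normalization (6.37%). They were 1 and 3 with median scaling (8.95%). With slide as a fixed block they are not given, as the hNAG-1 arm is 1 dam. The methods' ANOVA gave 3 list genes (4.82%). With 1 dam left out the counts ran from 0 to 2 and from 0 to 4. Both were highest without hNAG-1 5, where 14.4% of all probes passed, and the list count was 0 without WT 2 (4.33%) or hNAG-1 3 (3.65%).

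Same-numbered dams share only a number, with correlations of deviations of 0.279, -0.199, -0.142 and -0.307. With the replicate number as a block these counts were 2 and 2, where 13.2% of all probes passed, and Stim1 was 0.03.

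Signs are counted from 0, and the median of all probes was itself 0.19 with slide as a fixed block and 0.20 with median scaling, against -0.02. Changes from negative to positive in those fits went with that move of the median, and the opposite changes went against it. Log2 differences that changed sign with slide as a fixed block were Atp2b2 (-0.19), Atp2b1 A_51_P230799 (-0.46, and -0.0017 as a random block), the Atp2c1 probes (0.24, -0.37, -0.38 and -0.08), Atp2a2 A_52_P1156808 (1.97) and A_52_P569001 (-0.0024), Casr (1.59), Sln (1.04), Orai1 (-0.16), Itpr1 (0.01), Calm2 (0.54), Csn1s1 (-0.10), Csn2 (-0.01), Csn3 (0.06) and Htr7 (0.80). With median scaling they were Atp2b1 A_51_P222543 (0.03), both Stim1 probes (0.19 and 0.16), Calm2 (0.15) and Csn3 (0.21). With normexp they were the dimmer Stim1 probe (0.17), Casr (0.06) and Csn3 (0.01), and with quantile normalization the dimmer Stim1 probe (0.09) and Casr (0.12). Without outlier features they were Atp2a2 A_52_P1156808 (0.70) and Csn3 (0.0007), and over all probes of the gene Atp2c1 (0.01). Atp2a2 A_52_P1156808 was well above background on 1 array and its values are no fold changes. The cause was not tested.

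With 1 dam left out, differences ran from 0.25 to 0.71 for Atp2b2, -0.33 to -0.17 for Atp2b1, -0.68 to -0.28 for Atp2c1, -0.0035 to 0.23 for Atp2c2, 0.08 to 0.36 for Atp2a2, -0.13 to 0.05 for Stim1, -0.95 to -0.14 for Casr and -0.62 to -0.17 for Pthlh, on the brightest probes. The values nearest 0 came without WT 2 for Atp2b2, Atp2c2 and Atp2a2, without WT 1 for Atp2c1, without WT 4 for Atp2b1, without hNAG-1 4 for Casr and without hNAG-1 3 for Pthlh. Other differences that changed sign with 1 dam left out ran from -0.10 to 0.15 for Atp2b1 A_51_P230799, -0.13 to 0.16 for Atp2c1 A_52_P121812, -0.01 to 0.22 for Atp2c1 A_52_P611956, -0.79 to 0.70 and -0.0014 to 0.20 for Atp2a2 A_52_P1156808 and A_52_P569001, -0.17 to 0.18 for the dimmer Stim1 probe, -0.11 to 0.18 for Slc8b1, -0.18 to 0.08 for Calm2, -0.10 to 0.16 for Csn1s1, -0.06 to 0.25 for Csn1s2a, -0.10 to 0.20 for Csn2 and -0.13 to 0.09 for Csn3.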
